A study of Sus scrofa with 20 samples.

Results

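The 5 genes of tumour necrosis factor (TNF) and interleukin 1 (IL1) signalling followed here through the testis transcriptomes of 20 boars were TNFAIP3 (ENSSSCG00000004154), TNFSF10 (ENSSSCG00000020906), TNFRSF12A (ENSSSCG00000027130), LITAF (ENSSSCG00000024982) and IL1R1 (ENSSSCG00000008162). They were picked by these Ensembl identifiers as 5 of the 21306 genes listed for both breeds, because the high and low DFI boars of at least one breed had differed in them: TNFAIP3 in both breeds, TNFSF10, TNFRSF12A and IL1R1 in Landrace, and LITAF in Duroc. Their differences in those breeds are therefore given as a description, without a test. The boars were 5 Norsvin Landrace with low sperm DNA fragmentation index (DFI, 0.62 to 1.7%), 4 Norsvin Landrace with high DFI (5.58 to 8.04%), 5 Norsvin Duroc with low DFI (1.05 to 1.13%) and 6 Norsvin Duroc with high DFI (4.13 to 5.63%). DFI is the share of denatured DNA in sperm, read by flow cytometry after acridine orange staining. The boars received no treatment that the labels name, and their ages were not used. Each gave 1 testis library, cut from whole tissue, so that all its cell types contributed RNA. Levels are CPM, read counts of a gene as a share of the library and scaled to the library sizes after trimmed mean of M values (TMM) normalization, and are not corrected for transcript length, so that levels of different genes cannot be compared.

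TNF family ligands bind receptors of the TNF receptor family, and interleukin 1 binds IL1R1. Both routes lead through adaptor proteins and ubiquitin chains to the kinases that release NF-kB, a transcription factor that switches on inflammatory genes and also genes that stop the signal. In the testis these cytokines are made by germ cells, Sertoli cells and resident macrophages and are known to act on Leydig cell steroidogenesis and on the junctions between Sertoli cells. TNFSF10, also called TRAIL, is a death ligand that triggers apoptosis through its receptors. TNFRSF12A, also called Fn14, is the receptor of the ligand TWEAK and is induced in injured and remodelling tissue. IL1R1 is the signalling receptor of interleukin 1. LITAF is a protein of late endosomes and lysosomes that was first described as a regulator of TNF transcription. TNFAIP3, also called A20, is a ubiquitin-editing enzyme that is induced by NF-kB and restrains it.

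The names of 3 of the 5 rows (TNFAIP3, TNFRSF12A and IL1R1) were the same in the study's gene lists and in the reference table of gene names. The row ENSSSCG00000020906 is TNFSF10 in the study's lists but GHSR, the ghrelin receptor, in the reference table. These are neighbouring genes on chromosome 13 of the RefSeq assembly Sscrofa11.1, with 0 genes between them. The reads of that row may thus belong to either gene, and it is called TNFSF10 below with this reservation. ENSSSCG00000024982 has no symbol in the reference table, and its name LITAF rests on the study's lists alone. Of 395 identifiers named in both sources, 376 (95.19%) had the same symbol. The counting ignored the strand, so that reads of overlapping genes on the other strand could not be separated.

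Libraries held 18086448 to 51782156 counts, the fewest in Landrace high 1 and the next fewest, 34527935, in Duroc low 4. The 5 genes passed the filter on low counts in every comparison. Their raw counts per boar were 44 to 336 for TNFSF10, 42 to 441 for TNFRSF12A and 266 to 3090 for LITAF. One library stood apart: among the 9 Landrace boars, Landrace high 2 had the highest level of all 5 genes. It also had the highest summed level of the markers of macrophages, T and B cells, endothelium, peritubular myoid cells and Leydig cells and of immediate early genes, and the lowest of spermatids. Where leaving this boar out ended a call or moved a value strongly, the value without it is given. The labels number 6 Landrace boars consecutively (low 1 and 2 and the 4 high boars), whereas low 3, 4 and 5 carry other numbers. What the numbers stand for is not given in the sources used here.

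**Figure D1:**
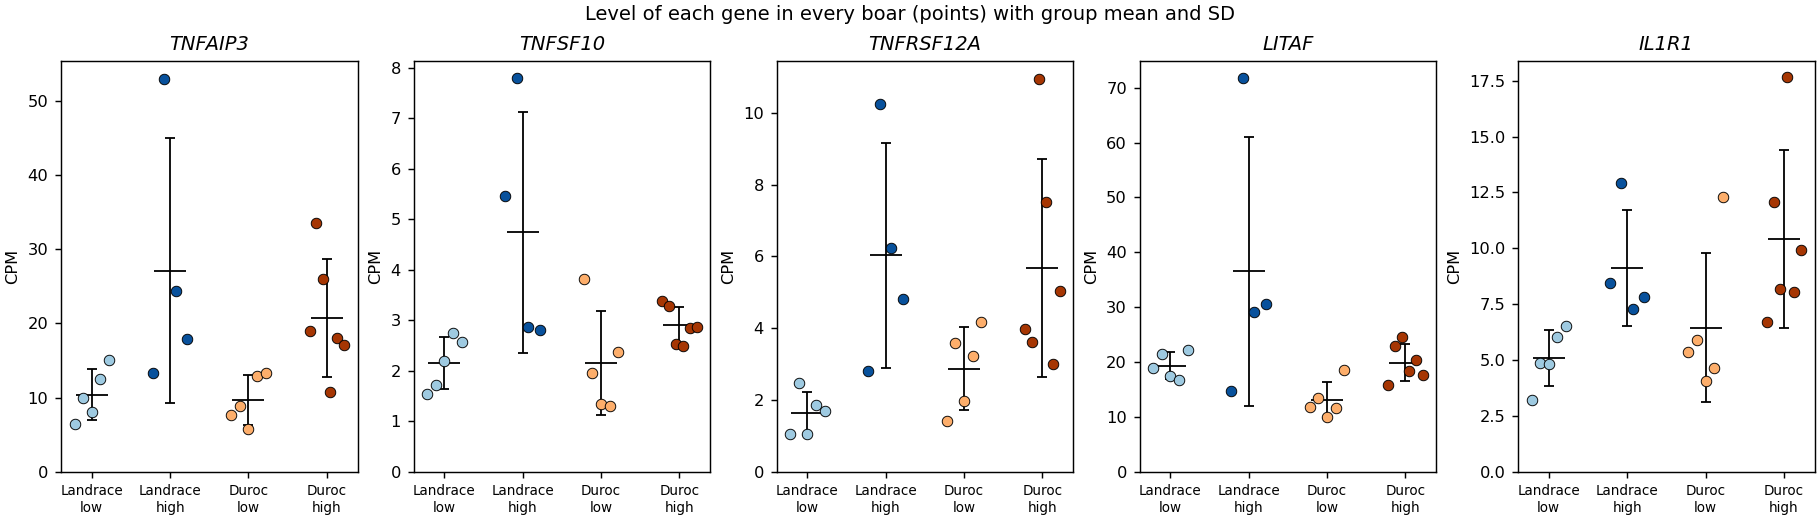
Level of TNFAIP3, TNFSF10, TNFRSF12A, LITAF and IL1R1 in CPM (linear vertical axis from 0, a separate scale for each gene) in the 20 boars by breed and DFI group. Points are boars, horizontal marks are group means and bars are SD; Landrace high 2 is the top Landrace point in each panel, at 53.0 CPM for TNFAIP3 and 71.8 CPM for LITAF.

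The ligand TNFSF10 was at 1.30 to 7.80 CPM over all boars. Its levels in the Landrace low boars 1 to 5 were 1.54, 1.73, 2.20, 2.74 and 2.57 CPM. In the Landrace high boars 1 to 4 they were 5.47, 7.80, 2.87 and 2.81 CPM. The groups did not overlap, but high 3 and 4 lay only just above the highest low boar, and the means (2.15 ± 0.520, SD, n = 5, against 4.74 ± 2.39, n = 4) were set apart mainly by high 1 and 2. The difference was 1.13 (log2 fold change, high against low) and 0.76 without Landrace high 2. TNFSF10 was 1 of 3 of the 5 genes whose Landrace groups did not overlap with the high boars on top, as did 4.41% of the 14519 genes tested there, a count that the choice of the genes in this breed had favoured. In the Duroc low boars 1 to 5 TNFSF10 was at 3.82, 1.95, 1.35, 1.30 and 2.37 CPM. In the 6 Duroc high boars the lowest was 2.49, the median 2.86 and the highest 3.38 CPM. All 6 high boars lay above 4 of the low boars and below Duroc low 1. For Duroc, where TNFSF10 had not been chosen, the difference was 0.42 ± 0.25 (log2, SE), which was within the spread between boars (edgeR quasi-likelihood test, adjusted p = 0.345; exact two-sided permutation test, p = 0.0996). Without Duroc low 1 it was 0.72, and its adjusted p over the boars left out in turn was 0.235 to 0.582 in the same edgeR test.

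The receptor TNFRSF12A had the widest difference of the 5 genes in Landrace. It was at 1.06, 2.48, 1.06, 1.86 and 1.69 CPM in Landrace low 1 to 5. In Landrace high 1 to 4 it was at 2.82, 10.24, 6.25 and 4.81 CPM. Every high boar exceeded every low boar, although high 1 exceeded low 2 by little. The group means were 1.63 ± 0.598 and 6.03 ± 3.14 CPM (SD, n = 5 and 4), a difference of 1.90 on the log2 scale, or 3.73-fold, and 1.52 without Landrace high 2. In Duroc low 1 to 5 TNFRSF12A was at 1.40, 3.60, 1.958, 3.23 and 4.16 CPM. The Duroc high boars ranged from 2.99 through a median of 4.50 to 10.95 CPM. The groups overlapped, and 3 of the 6 high boars exceeded all low boars. TNFRSF12A had not been chosen in Duroc. Its mean there was 2.87 ± 1.15 in low and 5.68 ± 3.03 in high boars (SD, n = 5 and 6), and the difference of 0.98 ± 0.37 did not pass the adjusted threshold (edgeR quasi-likelihood test, p = 0.0204, adjusted p = 0.170; exact two-sided permutation test, p = 0.0563). The likelihood ratio test of edgeR, which the study used, gave an adjusted p of 0.0775. Without Duroc high 3, the boar with the highest level, the difference was 0.69.

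The receptor IL1R1 was at 3.23, 4.87, 4.82, 6.01 and 6.51 CPM in Landrace low 1 to 5. Landrace high 1 to 4 had 8.46, 12.9, 7.28 and 7.83 CPM. The groups did not overlap, and here the gap did not rest on high 2 alone, since the other three high boars lay close together above the low boars. The means were 5.09 ± 1.27 and 9.13 ± 2.585 CPM (SD, n = 5 and 4), and the difference was 0.84 on the log2 scale and 0.62 without Landrace high 2. In Duroc low 1 to 5 IL1R1 was at 5.36, 5.89, 4.08, 4.62 and 12.3 CPM. The Duroc high boars had 6.72 CPM at the lowest, 9.04 at the median and 17.65 at the highest. All 6 high boars lay above 4 of the low boars, while Duroc low 5 lay above all high boars but one, Duroc high 4. The Duroc difference of 0.69 ± 0.31, in a breed where IL1R1 had not been chosen, was not called (edgeR quasi-likelihood test, p = 0.0466, adjusted p = 0.229; exact two-sided permutation test, p = 0.0649). It moved with single boars, from 0.47 without Duroc high 4 to 1.06 without Duroc low 5, with an adjusted p of 0.0663 in the latter edgeR fit.

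LITAF was steady in the low Landrace boars, at 19.0, 21.4, 17.5, 16.65 and 22.2 CPM in low 1 to 5. Landrace high 1 to 4 had 14.7, 71.8, 29.2 and 30.5 CPM. Of these, 3 exceeded all low boars, and high 1 had the lowest level of all 9. LITAF had not been chosen in Landrace. Its difference there was 0.92 ± 0.34 (log2, SE; edgeR quasi-likelihood test, p = 0.0208, adjusted p = 0.202; exact two-sided permutation test, p = 0.127), with an adjusted p of 0.0405 in edgeR's likelihood ratio test. Single libraries moved it in both directions. Without Landrace high 2 the difference was 0.37, with an adjusted p of 0.575 in the quasi-likelihood test. Without Landrace high 1, the smallest library, it was 1.175 (adjusted p = 0.0729, same test). In Duroc low 1 to 5 LITAF was at 11.9, 13.4, 10.04, 11.6 and 18.6 CPM. In the Duroc high boars it ranged from 15.75 through a median of 19.3 to 24.6 CPM. Duroc low 5 was the one low boar inside the range of the high boars. The Duroc difference was 0.60, or 1.51-fold, and stayed between 0.52 and 0.76 when each boar was left out.

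TNFAIP3, the brake of the pathway, had been chosen in both breeds. In Landrace low 1 to 5 it was at 6.50, 9.91, 8.003, 12.5 and 15.04 CPM. In Landrace high 1 to 4 it was at 13.3, 53.0, 24.3 and 17.8 CPM. High 1 lay below low 5, and the other three high boars lay above all low boars. The mean was 10.4 ± 3.43 CPM in low and 27.1 ± 17.9 CPM in high boars (SD, n = 5 and 4), with a log2 difference of 1.38, which was 0.83 without Landrace high 2. In Duroc low 1 to 5 the levels were 7.61, 8.86, 5.74, 12.95 and 13.4 CPM. The Duroc high boars ranged from 10.8 through a median of 18.5 to 33.5 CPM. Only Duroc high 4, the boar with the most IL1R1, overlapped with the low boars, and 5 of the 6 high boars exceeded all of them. The means were 9.70 ± 3.34 and 20.7 ± 7.93 CPM (SD, n = 5 and 6), and the log2 difference was 1.09 and lay between 0.91 and 1.23 over the boars left out in turn.

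All 5 genes thus had higher means in the high than in the low DFI boars of both breeds, in 6 of 6 differences that chose them and in 4 of 4 in the breed where a gene had not been chosen (LITAF in Landrace, TNFSF10, TNFRSF12A and IL1R1 in Duroc), none of which passed an adjusted p of 0.05 in the quasi-likelihood test. Over all genes 47.3% of differences were above 0 in Landrace and 51.8% in Duroc. Of the genes called by the likelihood ratio test, however, 746 of 767 were higher in Landrace and 293 of 376 in Duroc. The share above 0 among genes chosen as higher in the other breed was not counted, so that the 4 of 4 have no matching share beside them. By the quasi-likelihood test 0 of 14519 genes were called in Landrace (0.0%; 2417 at an unadjusted p under 0.05) and 2 of 14666 in Duroc (0.0136%), against 767 (5.28%) and 376 (2.56%) by the likelihood ratio test. Without overlap and with high above low stood 0 of the 5 genes in Duroc, where 2.02% of 14665 genes did. Among the 6 Landrace boars with consecutive numbers the differences were 1.73 for TNFAIP3, 1.54 for TNFSF10, 1.78 for TNFRSF12A, 0.87 for LITAF and 1.18 for IL1R1. In whole tissue, more cells of one type and more RNA per cell cannot be told apart.

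**Figure D2:**
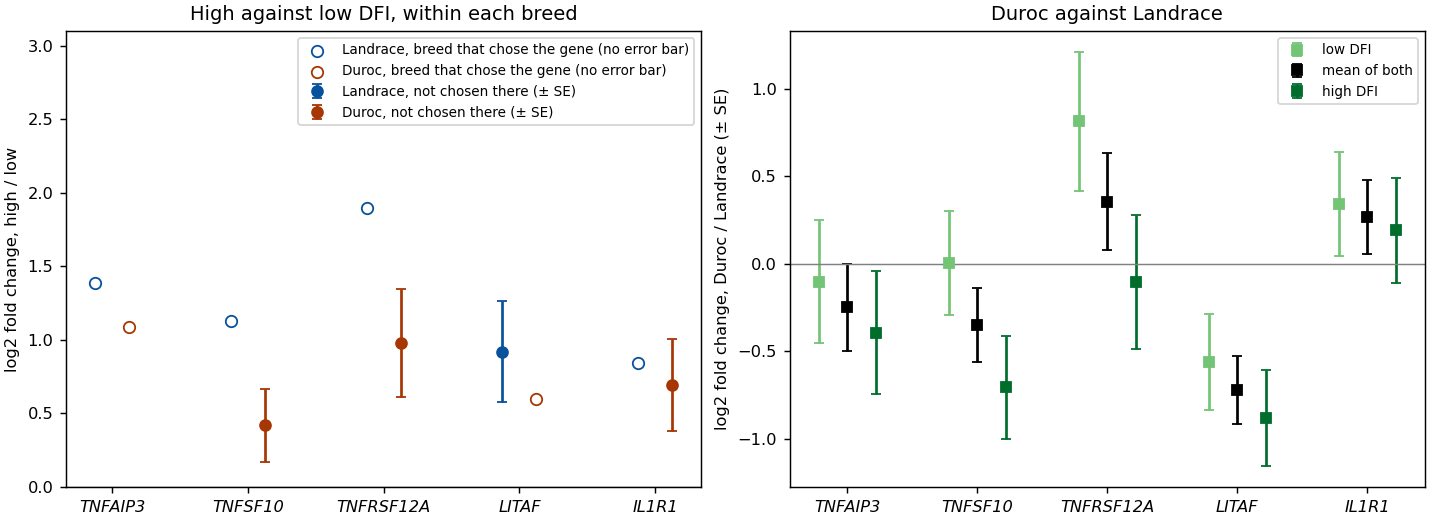
Differences of the 5 genes as log2 fold change (vertical axes, linear in log2 units). Open points are differences that chose the gene and carry no bar; bars on the other points are SE. The left panel gives high against low DFI in Landrace and Duroc, where all 10 values lie above 0, from 0.42 to 1.90; the right panel gives Duroc against Landrace at low DFI, at high DFI and as their mean, where LITAF lies below 0 in each.

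Whether the difference between DFI groups itself differed between the breeds was tested with an interaction term in a fit of all 20 boars. The Duroc minus the Landrace difference was -0.29 ± 0.50 (SE) for TNFAIP3, -0.71 ± 0.42 for TNFSF10, -0.91 ± 0.55 for TNFRSF12A, -0.32 ± 0.39 for LITAF and -0.15 ± 0.42 for IL1R1. None was called, with an adjusted p of 0.9996 for each in edgeR's quasi-likelihood test. The boars that chose the genes enter this term, and for the 3 genes chosen in Landrace only that choice favours a negative sign. With SE from 0.39 to 0.55, differences between the breeds of that size could not be told from none. Without Landrace high 2 the term turned positive for TNFAIP3 (0.26), LITAF (0.24) and IL1R1 (0.08), and was -0.33 for TNFSF10 and -0.53 for TNFRSF12A. Of all 14636 genes 0 (0.0%) were called by the quasi-likelihood test, with 364 at an unadjusted p under 0.05, and 2 (0.0137%) by the likelihood ratio test.

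LITAF was the one gene of the 5 that was called between the breeds. Averaged over DFI groups it was lower in Duroc, by -0.72 ± 0.19 on the log2 scale (SE), or to 0.606 of the Landrace level (edgeR quasi-likelihood test, adjusted p = 0.0140), in a comparison where 18.4% of 14636 genes were called and 9.58% were called lower. The mean was 13.1 ± 3.28 against 19.4 ± 2.41 CPM in the low DFI boars (SD, n = 5 each) and 19.9 ± 3.35 against 36.5 ± 24.6 CPM in the high DFI boars (n = 6 and 4). In the low DFI boars 4 of the 5 Duroc levels lay below all Landrace levels, and the share of all genes that did so was not counted. The choice of LITAF with Duroc high above low favours a lower value in Duroc at low DFI and works against one at high DFI. The call held with each boar left out, with differences from -0.84 to -0.45 and adjusted p from 0.00150 to 0.0325 in the same test, the smallest difference being that without Landrace high 2. Taken one DFI group at a time, LITAF differed by -0.56 ± 0.27 at low DFI (same test, adjusted p = 0.276, 4.92% of genes called). At high DFI it differed by -0.88 ± 0.27 (same test, adjusted p = 0.0612 with 5.73% of genes called, likelihood ratio test of edgeR 0.0177 with 5.71% called). The difference at high DFI moved with single boars. It was -0.33 without Landrace high 2 (quasi-likelihood test, adjusted p = 0.396) and -1.13 without Landrace high 1 (adjusted p = 0.0105), the latter a call in 1 of 20 repeats.

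The other 4 genes were not called between the breeds. Over both DFI groups the Duroc minus Landrace difference was -0.25 ± 0.25 for TNFAIP3, -0.35 ± 0.21 for TNFSF10, 0.36 ± 0.28 for TNFRSF12A and 0.27 ± 0.21 for IL1R1 (log2, SE), with adjusted p of 0.530, 0.263, 0.401 and 0.415 in edgeR's quasi-likelihood test. Without Landrace high 2 the sign for TNFAIP3 turned (0.03), and the difference was -0.17 for TNFSF10 and 0.54 for TNFRSF12A. Without Duroc low 5 that of IL1R1 was 0.09. At low DFI TNFSF10 was nearly level between the breeds, at 2.15 and 2.16 CPM, whereas TNFRSF12A differed by 0.81 ± 0.40 (adjusted p = 0.276). At high DFI TNFSF10 differed by -0.70 ± 0.29 (adjusted p = 0.157) and by -0.33 without Landrace high 2. TNFSF10 and TNFRSF12A were chosen with Landrace high above low, which favours a positive difference at low DFI and a negative one at high DFI. Whether libraries of the breeds were made and sequenced together is not given in the sources used here, and breed and any such difference cannot be told apart. Haemoglobin HBB, the 1 blood marker tested, also differed between the breeds, by -2.76 ± 0.37 (adjusted p = 4.56e-05), and its part in the LITAF difference was not tested.

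To see whether the 5 genes moved together from boar to boar, each boar's deviation from the mean of its own group was taken on the log2(CPM + 0.5) scale, so that neither breed nor DFI group contributed. Of the 10 pairs, 2 passed an adjusted p of 0.05. TNFAIP3 and LITAF had r = 0.75 (permutation test within groups, p = 0.00205, adjusted p = 0.0205; Spearman's rho = 0.615, adjusted p = 0.114; n = 20), and r = 0.57 without the boars farthest out on TNFAIP3, Landrace high 2 and Duroc high 2. TNFRSF12A and LITAF had r = 0.64 (p = 0.00833, adjusted p = 0.0417; rho = 0.498, adjusted p = 0.144), and 0.49 without Duroc high 3 and Landrace high 1. Over the 20 repeats that each lacked 1 boar, the call was lost in 4 for the first pair and in 11 for the second. Neither passed by rank. Within Landrace alone r was 0.83 and 0.84 for these pairs (adjusted p = 0.0847 for each), and within Duroc alone 0.66 and 0.49 (adjusted p = 0.341 and 0.477, permutation tests). Without Landrace high 2 these pairs had r = 0.58 and 0.55, and 0 of the 10 pairs passed.

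TNFSF10 followed another pattern. Its r with TNFRSF12A was -0.09 (adjusted p = 0.766 in the permutation test; rho = -0.156, adjusted p = 0.633) and with LITAF 0.26 (adjusted p = 0.649; rho = 0.0316, adjusted p = 0.915), the latter turning to -0.26 without Landrace high 2. Landrace high 1 and Duroc low 1, both high in TNFSF10 within their groups, were the lowest of their groups in TNFRSF12A. The closest to TNFSF10 among the 5 genes was IL1R1 (r = 0.42, adjusted p = 0.155; rho = 0.466, adjusted p = 0.144), the one pair of the 10 that passed within Landrace alone (r = 0.83, adjusted p = 0.0284, permutation test; r = 0.17 within Duroc alone). Over both breeds its r was 0.31 without Landrace high 2. The remaining 5 pairs had r between 0.35 and 0.50, with adjusted p of 0.0963 or more. Ranked among 14635 genes by likeness to LITAF, TNFAIP3 stood 137th and TNFRSF12A 645th, so that many genes outside the pathway resembled LITAF more.

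**Figure D3:**
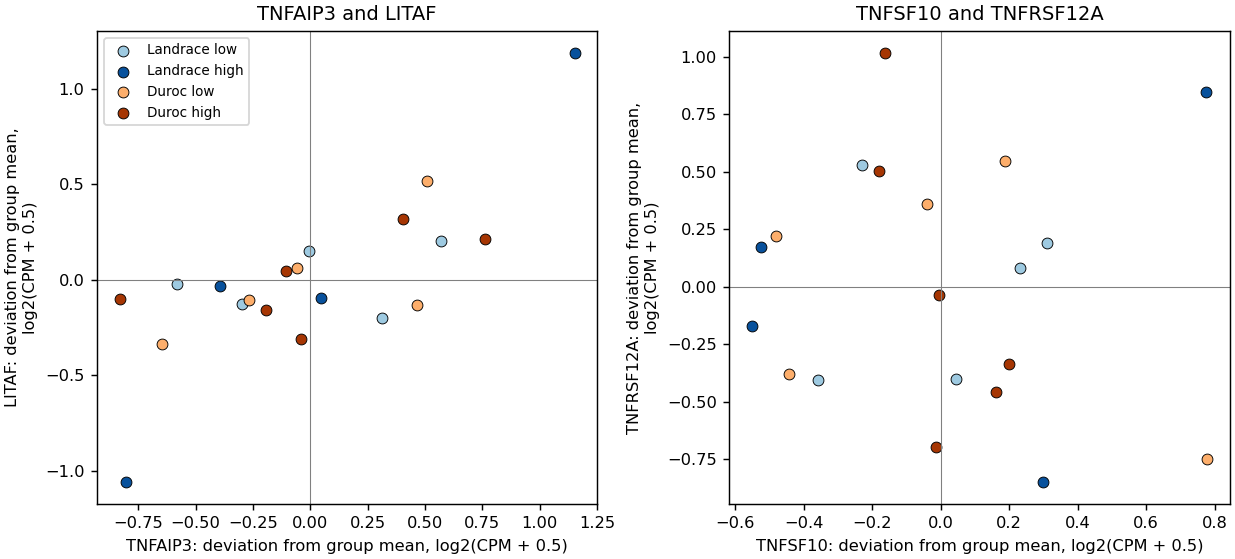
Deviation of each boar from its group mean in log2(CPM + 0.5), for TNFAIP3 (horizontal) against LITAF (vertical) and for TNFSF10 (horizontal) against TNFRSF12A (vertical), coloured by group. Landrace high 2 lies in the upper right part of both panels; r was 0.75 for the first pair and -0.09 for the second.

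The genes most like each of the 5 by the same deviations (Pearson's r over 20 boars, 14636 genes, a ranking with no test) were mostly outside the pathway. For TNFAIP3 they were ENSSSCG00000009465 (r = 0.91), ENSSSCG00000009585 (0.90) and HADHB (0.89), a subunit of the mitochondrial trifunctional protein. For TNFSF10 they were ENSSSCG00000011227 (0.88), ENSSSCG00000001456 (0.85) and RASGRP3 (0.84), a Ras exchange factor. For TNFRSF12A they included ENSSSCG00000012279 (0.90) and CDIPT (0.86). They were for LITAF ENSSSCG00000021684 (0.90), RAB6A (0.89) and LEPROT (0.88), and for IL1R1 NDRG2 (0.90), CASK (0.90) and BCAM (0.87). RAB6A and LEPROT are proteins of Golgi and endosomal transport, and BCAM is a laminin-binding adhesion molecule. None of the 5 was among the 3 closest genes of another.

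Within the 10 high DFI boars the levels were set against DFI itself, again as deviations from group means. None of the 5 relations passed. The r was -0.32 for TNFAIP3 (rho = -0.406), -0.61 for TNFSF10 (rho = -0.624), 0.12 for TNFRSF12A (rho = 0.236), 0.03 for LITAF (rho = -0.224) and -0.03 for IL1R1 (rho = -0.139), with adjusted p of 0.989 for each r and 0.686 to 0.699 for each rho in permutation tests within groups. Without Landrace high 4 and 1, the boars farthest out in DFI, r was -0.90 for TNFAIP3, -0.43 for TNFSF10, -0.16 for TNFRSF12A, -0.75 for LITAF and 0.02 for IL1R1. Landrace high 1, with the smallest library, the lowest DFI of its group and the lowest TNFAIP3, TNFRSF12A and LITAF, carried most of that change. Without it alone r was -0.92 for TNFAIP3 (adjusted p = 0.0142, permutation test) and -0.80 for LITAF (adjusted p = 0.0306), in 1 of 10 repeats that each lacked 1 boar. As the study reports, DFI of several high boars rests on a single ejaculate. For most of the others the SD between ejaculates exceeded the DFI range of the group, so that differences in DFI within a group are uncertain.

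The wider pathway was represented by 144 further symbols, of which 96 were matched to rows with counts. Of these, 68 in Landrace and 69 in Duroc passed the filter. In Landrace 51 of the 68 differences were above 0, with a median of 0.14. At an unadjusted p under 0.05, 21 were higher and 0 lower, or 15 and 0 without Landrace high 2, where 12.1% of all genes were higher and 4.53% lower by that criterion. In Duroc 48 of the 69 differences were above 0, with a median of 0.08, and 18 were higher and 3 lower at that p, against 11.3% and 9.89% of all genes. After adjustment 0 were called in either breed by edgeR's quasi-likelihood test. Its likelihood ratio test called 10 higher and 0 lower in Landrace and 2 higher in Duroc, against 5.14% and 2.0% of all genes called higher. The 5 genes themselves are not in these counts. The counts do hold TNIP1, NFKBIA and TRAF3IP2, which the study had listed on these samples. TNIP1 and NFKBIA are among the likelihood ratio calls in Landrace and TRAF3IP2 among those in Duroc, and these calls are no independent evidence.

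**Figure D4:**
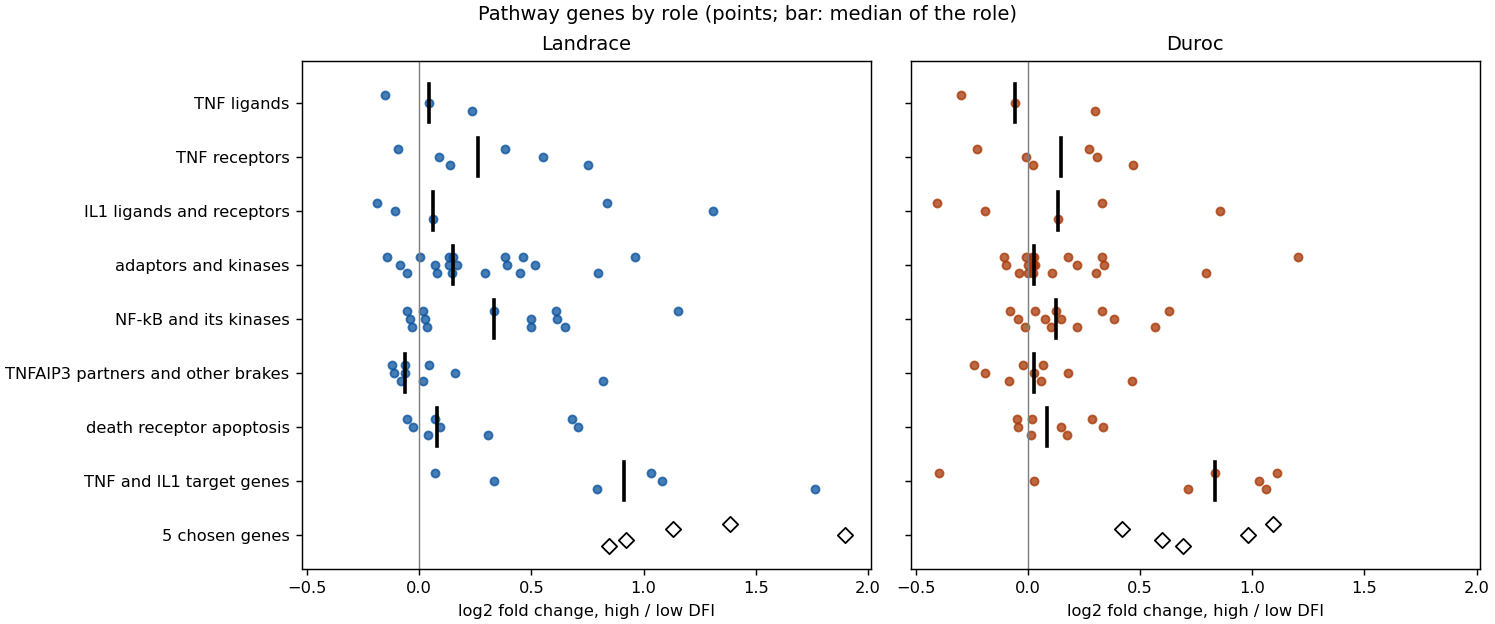
Log2 fold change of high against low DFI (horizontal axis) for the pathway genes that passed the filter, by role, in Landrace and Duroc. Each point is a gene, the black bar is the median of a role and diamonds are the 5 chosen genes; the target genes have the highest medians of the 8 roles, 0.91 (0.61 without Landrace high 2) and 0.83.

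Few other ligands could be followed. Genes of the lists were looked up through the reference table of gene names, so that a gene whose row has another identifier or no symbol there was missed. By that lookup no counted row was matched to TNF itself or to TNFSF12, the ligand of TNFRSF12A. Whether their reads were counted under another identifier was not tested. Of the 9 ligands with counts, only EDA, FASLG and LTA passed the filter, and their Landrace differences lay between -0.15 and 0.23. IL1A had 0.0527 CPM on average. The pathway genes named below were picked by mean CPM within their role, which also depends on transcript length. Among the receptors these were TNFRSF21 at 152 CPM, LTBR, the lymphotoxin beta receptor, at 30.2 CPM and TNFRSF19 at 15.95 CPM. Their differences were -0.10, 0.38 and 0.09 in Landrace and -0.22, 0.31 and -0.01 in Duroc. Those of the interleukin 1 family were IL18, IL33 and IL18R1, with -0.11, 0.06 and -0.19 in Landrace and -0.19, 0.13 and -0.41 in Duroc. Next to IL1R1 stood its co-receptor IL1RAP, which went from 2.22 ± 0.527 CPM in low to 3.97 ± 1.10 in high Landrace boars (SD), a difference of 0.84 ± 0.22 (adjusted p = 0.111 in the quasi-likelihood and 0.0274 in the likelihood ratio test of edgeR), and 0.33 ± 0.27 in Duroc. The decoy receptor IL1R2, which binds interleukin 1 without signalling, differed by 1.31 ± 0.52 and 0.86 ± 0.41 in Landrace and Duroc (adjusted p = 0.237 and 0.251, edgeR quasi-likelihood test). IL1RAP and IL1R2 were named here after their values were seen.

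Inside the cell, 16 of 19 adaptors and kinases in Landrace and 14 of 19 in Duroc had differences above 0, with medians of 0.15 and 0.03. TAB2, BIRC3 and RIPK1 had Landrace differences of -0.05, 0.07 and 0.15, and CHUK, RELA and IKBKB, which stand at the NF-kB step, had -0.04, -0.03 and 0.03. The 13 genes of that step had a wider range in Landrace, from -0.06 to 1.15, with 10 above 0, a median of 0.34 (0.21 without Landrace high 2) and 3 called by the likelihood ratio test. In Duroc 10 were above 0, with a median of 0.13, and 0 were called. The partners of TNFAIP3 and other brakes had 4 of 9 differences above 0 in Landrace and 5 of 9 in Duroc. TAX1BP1, ITCH and OTUD7B had -0.07, -0.11 and 0.04 in Landrace and -0.24, -0.02 and 0.07 in Duroc. The next 3 genes had been listed by the study on these samples, so that neither their direction nor their calls are independent evidence. NFKBIA, the inhibitor of NF-kB, differed by 0.65 in Landrace and 0.38 in Duroc, and TNIP1, which binds TNFAIP3, by 0.82 and 0.46. TRAF3IP2, an adaptor of interleukin 17 signalling, differed by 0.96 and 1.20. Their adjusted p in edgeR's likelihood ratio test were 0.00999, 0.00192 and 0.112 in Landrace and 0.120, 0.111 and 0.0185 in Duroc, and 0.0972 to 0.269 in the quasi-likelihood test.

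Of the genes that carry out apoptosis downstream of TNFSF10, 6 of 8 had differences above 0 in each breed. Their differences ranged from -0.05 to 0.71 in Landrace and from -0.05 to 0.34 in Duroc. The likelihood ratio test called 2 of the 8 higher in Landrace and 0 in Duroc, against 5.14% and 2.0% of all genes. DIABLO, CYCS and BID had Landrace differences of -0.05, 0.09 and 0.07 and Duroc differences of -0.05, -0.04 and 0.18. The target genes of TNF and interleukin 1 showed wider differences. All 6 tested in Landrace and 6 of the 7 tested in Duroc had differences above 0, with medians of 0.91 and 0.83. The Landrace median was 0.61 without Landrace high 2, with 5 of 6 above 0. VCAM1, an adhesion molecule of activated endothelium, had 96.4 CPM on average and differed by 1.76 in Landrace and 1.06 in Duroc (adjusted p = 0.112 and 0.276, edgeR quasi-likelihood test; 0.000700 and 0.163, likelihood ratio test). Its spread was wide in the high Landrace boars, at 247 ± 205 CPM against 72.6 ± 27.2 CPM in the low ones (SD). JUNB, an AP-1 subunit, differed by 1.03 in both breeds (adjusted p = 0.129 and 0.139 in the quasi-likelihood test, 0.0162 and 0.0359 in the likelihood ratio test). JUNB is also in the list of immediate early genes below, so that the lists are not separate. BIRC3, also listed among the adaptors, differed by 0.07 and 0.03. Many textbook targets were near the detection limit, with IL6 at 0.0300 and CXCL8 at 0.0586 CPM on average, where the lowest deposited value of 1 count sets the level.

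Between the breeds 4 pathway genes were called higher and 5 lower in Duroc, of 69 tested, where 8.84% of all genes were called higher and 9.58% lower. The higher ones were EDA (0.36), IL18R1 (0.30), TRAF5 (0.85) and SHARPIN (0.19), and the lower ones CHUK (-0.12), OTUD7B (-0.20), CASP10 (-0.28), APAF1 (-0.48) and VCAM1 (-1.498), with adjusted p from 0.00350 to 0.0458 (edgeR quasi-likelihood test). Without Landrace high 2, 7 of these 9 were still called, VCAM1 with a smaller difference of -1.13 (adjusted p = 0.0408, edgeR quasi-likelihood test). IL18R1 (adjusted p = 0.0826) and CHUK (adjusted p = 0.0613) were not, and TAB1, an adaptor of the kinase TAK1 named here after its value was seen, was called in addition (0.30, adjusted p = 0.0345, edgeR quasi-likelihood test). In size, 2 of these differences, those of VCAM1 and TRAF5, exceeded that of LITAF. TRAF5, an adaptor of TNF receptors, was also called at low DFI (1.09, adjusted p = 0.0167).

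Markers of several cell types lay higher or lower in the high than in the low DFI boars of the same samples. None was called in either breed by edgeR's quasi-likelihood test, and some were by its likelihood ratio test. Summed over the 6 Leydig cell markers with counts, of 8 listed, the level was 1342 to 4216 CPM in low and 4593 to 12080 in high Landrace boars, which did not overlap, and 866.6 to 6024 and 3454 to 7092 in Duroc. Of these 6 markers, 5 had differences above 0 in Landrace and 6 in Duroc. No counted row was matched to STAR. In both breeds the 6 peritubular myoid and smooth muscle markers and the 5 of 8 endothelial markers with counts all had differences above 0. The myoid sum was 96.4 to 170.3 and 168.4 to 275.7 CPM in low and high Landrace boars, and 112.2 to 208.1 and 138.3 to 265.2 CPM in Duroc. The endothelial sum was 35.3 to 57.7 and 48.6 to 103.4 CPM in low and high Landrace boars, and 30.6 to 75.3 and 60.1 to 95.1 CPM in Duroc. The 6 of 10 macrophage markers with counts (CSF1R, CD68, MSR1, CD14, PTPRC and C1QA) summed to 10.15 to 17.7 and 11.3 to 32.9 CPM in Landrace and to 11.6 to 18.25 and 14.6 to 19.2 CPM in Duroc. Differences above 0 were found for 6 of these 6 markers in Landrace and 4 in Duroc. No counted row was matched to CD163, AIF1, CD74 or C1QB. Of the 7 T and B cell markers with counts 2 passed the filter, and CD3D, CD79B and MS4A1 averaged 0.156, 0.130 and 0.176 CPM. The 10 spermatid markers, which mark the tissue as testis with sperm production, all had differences below 0 in both breeds, with medians of -0.17 and -0.26. The immediate early genes, which are induced rapidly by many stimuli, had 9 of 9 differences above 0 in Landrace and 8 of 9 in Duroc, and summed to 63.2 to 103.3 and 88.65 to 160.1 CPM in low and high Landrace boars and to 57.45 to 112.6 and 80.4 to 149.3 CPM in Duroc. Of the other lists, differences above 0 in Landrace and Duroc were found for 2 and 6 of 7 Sertoli cell markers, 2 and 2 of 6 spermatogonial markers, 1 and 0 of 7 spermatocyte markers and 2 and 0 of 2 T and B cell markers.

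**Figure D5:**
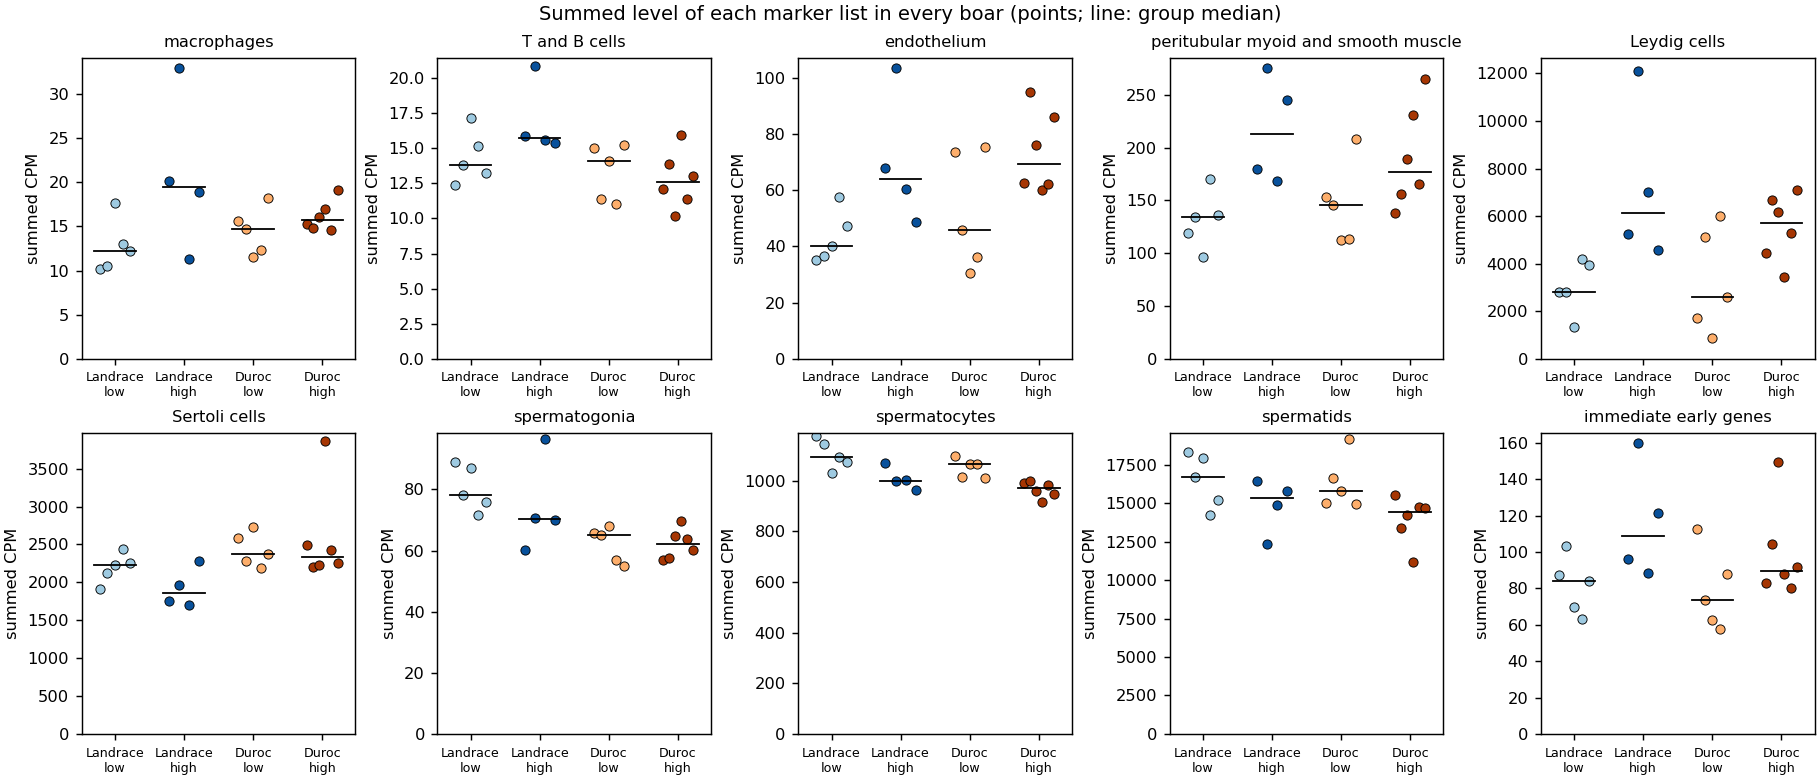
Summed CPM of each marker list in every boar (points, line at the group median, linear axes from 0, a separate scale for each list), by breed and DFI group. The Leydig, endothelial and peritubular myoid sums are higher at the median in high than in low DFI boars of both breeds, the spermatid sum is lower, and Landrace high 2 has the top Leydig sum, 12080 CPM.

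Set against these sums as deviations from group means, 4 of 55 relations with the 5 genes passed an adjusted p of 0.05 by both r and rho, in permutation tests within groups that were added after the data had been seen. TNFSF10 followed the endothelial sum (r = 0.83, adjusted p = 0.00880; rho = 0.817, adjusted p = 0.0116; r = 0.81 without Duroc low 5 and Landrace high 2). TNFAIP3 followed the Leydig sum (r = 0.68, adjusted p = 0.0172; rho = 0.749, adjusted p = 0.0176; r = 0.64 without Duroc low 3 and 4). IL1R1 fell as the spermatid sum rose (r = -0.75, adjusted p = 0.00935; rho = -0.723, adjusted p = 0.0204; r = -0.60 without Duroc high 4 and Landrace high 2). It rose with the myoid sum (r = 0.69, adjusted p = 0.0450; rho = 0.687, adjusted p = 0.0326; r = 0.66 without Duroc low 5 and Duroc high 6). Without Landrace high 2, 0 of 55 passed, with r = 0.78, 0.64, -0.71 and 0.65 for these relations in the same order (adjusted p = 0.0550, 0.0968, 0.0641 and 0.125, permutation tests). The relation of IL1R1 with the myoid sum lost its call in 13 of the 20 repeats that each lacked 1 boar. By rho alone, IL1R1 also passed with the macrophage sum (rho = 0.672, adjusted p = 0.0326, with r = 0.55, adjusted p = 0.0600) and the endothelial sum (rho = 0.642, adjusted p = 0.0455, with r = 0.60, adjusted p = 0.0736, and 0.36 without Duroc low 5 and Landrace high 2), and LITAF with the immediate early genes (rho = 0.689, adjusted p = 0.0343, with r = 0.61, adjusted p = 0.0609). The part of these cell types, of the immediate early genes and of Landrace high 2 in the differences between DFI groups was not tested.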

How the data were processed

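RNA from a piece of testis of 20 boars was sequenced by the authors as non-stranded 50 bp single reads, 1 library per boar, mapped to Sscrofa10.2 with TopHat 2.0.12 and counted on Ensembl genes with HTSeq (strand not used). What was deposited are raw read counts per gene that were not normalized. The lowest value in every library is 1, and whether 1 was added or put in place of 0 is not given in the sources used here. Replicates are boars, numbered in the order of the samples. DFI was taken from the labels, which for some Landrace boars differ from the values the study tabulates.

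Counts were analyzed in R 4.3.3 with edgeR 4.0.16. Genes above 1 CPM in at least 5 of 9 Landrace, 6 of 11 Duroc or 10 of all 20 boars were kept, TMM normalized and compared with the quasi-likelihood test. The breeds were fitted separately for high against low DFI, as in the study, and together for breed and interaction. Benjamini-Hochberg adjustment ran over all genes of a fit, with a threshold of 0.05. Single genes were also compared with exact permutation tests over 126 Landrace or 462 Duroc splits, on log2(CPM + 0.5), and correlations with 100000 permutations within groups (Python 3.11.15, scipy 1.17.1), adjusted over the 10, 5 or 55 relations of a family. The SE of a fold change restates its quasi-likelihood test and is left out where the contrast chose the gene. On simulated counts with 200 changed genes the test recovered 77% of genes changed by a log2 of 1 in the Landrace design, 84% in the Duroc design and 98% for the breeds, and 4.49%, 5.38% and 4.39% of calls were wrong. Each design was drawn a single time, with genes picked at random and independent of each other and with no library standing apart. These shares therefore do not give the power of the test for the 5 genes in the real data.

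Other settings tried were the study's likelihood ratio test in edgeR (tagwise dispersions), the Wald test of DESeq2 1.42.0, voom of limma 3.58.1 (quality weights), median-of-ratios scaling, no filter, at least 10 counts in every boar, 1 subtracted from each count, a threshold of 0.10, the number series of the Landrace boars, other pseudocounts and plain totals, and each boar left out. The split of the low Landrace boars by number series, the relations with marker lists and the pathway counts without Landrace high 2 or Duroc low 5 were added after the data had been seen. The 5 genes, the pathway and marker lists and the tests were chosen with earlier results of these data known. Besides the 5 genes, the text names the 3 genes with the highest mean CPM of each pathway role, pathway genes called in any comparison, TNIP1, NFKBIA and TRAF3IP2, the 3 genes most like each of the 5 (1 of them is not reported here), and genes said to be named after their values were seen or to illustrate a list. Promoter and protein sequences were not analysed here.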

Additional observations from a re-analysis of the deposited data

How the results depend on the processing

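How many genes passed in all was set mostly by the test. In Landrace 0 genes were called, against 189 at an adjusted threshold of 0.10, 767 by the likelihood ratio test, 842 by DESeq2 and 1 each by limma, without a filter and with 10 counts in every boar, and 0 to 2 with each boar left out. In Duroc 2 were called, against 376, 869 and 67 by these tests and 0 without a filter, and 0 to 17 with each boar left out, the 17 without Duroc low 5. At low DFI 720 genes differed between breeds, against 1186 at 0.10, 1095 by DESeq2 and 1195 by limma (455 to 856 with boars left out), and at high DFI 838, against 1689 and 1377 by the first of these (563 to 915, the lowest without Landrace high 2). The interaction had 0, against 2 by the likelihood ratio test and 2 by DESeq2 (0 to 1, the 1 without Duroc low 5). The call of LITAF between the breeds held under each of the 8 other settings and without each boar.

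Signs turned only for differences that had not been called, the largest being that of TNFAIP3 between the breeds at high DFI (-0.39 with all boars). By limma, TNFAIP3 at high DFI (Duroc minus Landrace) was 0.0294 and the interaction 0.25 for TNFAIP3 and 0.0536 for LITAF. TNFSF10 at low DFI was -0.00613 without a filter and -0.000853 with 10 counts in every boar, and -0.30 to 0.14 with boars left out. With boars left out the breed difference ran from -0.35 to 0.0252 for TNFAIP3 (at low DFI -0.23 to 0.0693, at high DFI -0.60 to 0.16), from -0.39 to 0.28 for TNFRSF12A at high DFI, and for IL1R1 from -0.0187 to 0.47 at low and -0.0246 to 0.41 at high DFI. The interaction ran from -0.51 to 0.26 for TNFAIP3, -0.57 to 0.24 for LITAF and -0.36 to 0.22 for IL1R1. The causes were not tested.

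Of the 10 pairs, 1 passed in Landrace alone (TNFSF10 with IL1R1) and 0 in Duroc alone, and 0 to 5 with boars left out, the 5 without Duroc high 4. TNFSF10 with TNFRSF12A had r = 0.26 in Landrace alone (-0.40 to 0.13 with boars left out), and TNFSF10 with LITAF -0.26 to 0.54. Of the 5 relations with DFI 0 to 2 passed with boars left out. IL1R1 with DFI had r = 0.00468 with plain totals (-0.49 to 0.11), TNFRSF12A -0.31 to 0.39 and LITAF -0.80 to 0.37. Of the 55 relations with marker lists 0 to 9 passed with boars left out. Raw counts of 42 to 166 for TNFSF10 and TNFRSF12A in the low boars limit the precision of their levels, and so do those of Landrace high 1 (99 and 51), the smallest library. No paired analysis applied, since each boar gave 1 library in 1 group and the labels name no pairs of boars.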
